A study of Homo sapiens with 4 samples.

Results

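S100A10 chromatin immunoprecipitation followed by sequencing (ChIP-seq) was examined in LoVo, an established human colorectal cancer cell line. The members are all enriched regions in the LoVo peak list, with lines of equal chromosome, start and end merged into 1 interval, which gave 1380 of the 5528 intervals of the series. The remaining 4148 belong to HCT116, another colorectal cancer line treated in the same way and pulled down with another lot of the antibody. LoVo polyploid giant cancer cells (PGCCs) with daughter cells, a mixture and not a purified population, had received cobalt chloride (CoCl2), a hypoxia mimetic, at 535.5 μM for 48 h according to the labels. The study's methods give another concentration and describe repeated treatments with recovery in between. DNA pulled down with a BD Biosciences antibody against S100A10 was compared with input chromatin of the same cells, with 1 library each. Both libraries came from treated cells, and untreated LoVo cells did not enter the comparison. Each arm being a single library, there was no replicate check and no test between conditions. The intervals given in brackets cover counting error only, and neighbouring peaks are not independent of each other.

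S100A10 is a small EF-hand family protein that pairs with annexin A2 at the plasma membrane and helps plasminogen activation at the cell surface. It is not known as a sequence-specific DNA-binding factor. The study asked which genomic regions nuclear S100A10 occupies in PGCCs. The sequence around centromeres and on the short arms of the acrocentric chromosomes is rich in repeats and segmental duplications, where short reads are hard to place. The data were described by chromosome arm and by distance from the centromere and from the arm end.

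For each interval the authors' list gives the pileup of extended reads at the summit, the fold enrichment over local background, and −log10 q, the false discovery rate on a log scale. The pileup had been scaled down by 0.654 to the input depth, and division by that factor returned whole ChIP tags, to within 0.00761 of a tag. Below, tags are unscaled ChIP tags, while every local background is in scaled tags. Their ratio is therefore larger than the fold enrichment in the list. The genome-wide mean background was 1.17 scaled tags, which equals 1.79 ChIP tags. After filtering, the ChIP library held 19762814 tags and the input library 12925105. The 1380 intervals held 8 to 547 tags at their best summit and were 281 to 8575 bp long. Of all intervals, 449 (32.5%) had a q of 0.05 or less, and 650 had a −log10 q of 0, having entered the list through the unadjusted p cutoff of 0.005 in its header. The header also states that q is not calculated, so every q given here rests on reading the last score column as −log10 q. A fold enrichment of 5 or more was reached by 86 intervals (6.23%).

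Few annotated starts were touched by a peak. The share of sequence in the promoter windows was not computed, so this count does not show whether starts held fewer peaks than their share. Of 35116 promoter windows in the RefSeq table (250 bases before to 50 after a start), those of 5 genes were touched, namely PARD3B, KCNH2, HOXA-AS3, EN2-DT and AQP5-AS1. All of these intervals had 8 to 11 tags and a −log10 q of 0. The upstream 250 bases of the 2 protein-coding genes among them are shown because both starts lie inside a LoVo interval, with the bases inside the interval in capitals and build GRCh38.p14. PARD3B encodes a partitioning-defective polarity protein, and its bases lie at chr2:204545225-204545474 on the plus strand.
PARD3B: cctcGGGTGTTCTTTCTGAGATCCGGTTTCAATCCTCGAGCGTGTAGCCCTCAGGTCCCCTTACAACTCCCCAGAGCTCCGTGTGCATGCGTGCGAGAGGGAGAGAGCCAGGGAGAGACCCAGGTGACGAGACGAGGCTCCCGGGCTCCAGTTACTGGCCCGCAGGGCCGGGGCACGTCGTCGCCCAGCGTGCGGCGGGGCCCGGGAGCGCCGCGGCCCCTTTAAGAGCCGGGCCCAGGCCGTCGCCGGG
KCNH2 encodes the pore-forming subunit of the hERG potassium channel, and its bases lie at chr7:150955805-150956054 on the minus strand.
KCNH2: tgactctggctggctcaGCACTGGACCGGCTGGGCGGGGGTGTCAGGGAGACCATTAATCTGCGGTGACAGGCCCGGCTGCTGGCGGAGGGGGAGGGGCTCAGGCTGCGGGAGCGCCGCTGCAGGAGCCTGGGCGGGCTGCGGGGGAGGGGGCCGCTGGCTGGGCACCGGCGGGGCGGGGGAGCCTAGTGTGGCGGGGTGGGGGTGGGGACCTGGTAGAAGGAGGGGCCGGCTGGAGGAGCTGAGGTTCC
The interval at PARD3B covered 246 of the 250 bases with 10 tags at 3.21-fold enrichment. That at KCNH2 covered 233 with 9 tags at 2.80-fold enrichment. Both windows were rich in G and C, at 71.0% and 75.3% of their bases, against a median of 58.7% over all promoter windows. The windows of starts within 5 kb of an interval had a median of 62.7% (n = 89). HOXA-AS3 and AQP5-AS1 had windows of 52.7% and 58%, so the 5 windows did not share this composition.

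Both microRNA hairpins reached by an interval, of 1562 hairpins in the table, lay wholly inside a peak with a q below 0.05. Their mature sequences are printed to show which sequences lay under these peaks, with the seed (bases 2 to 8) in capitals.
hsa-miR-6859-5p: gAGAGGAAcaugggcucaggaca
hsa-miR-6859-3p: uGACCCCCaugucgccucuguag
hsa-miR-8078: gGUCUAGGcccggugagagacuc
The seeds differ from one another. MIR6859-1 (chr1:17369-17436, minus strand) sat in an interval of 16 tags against a local background of 1.17 scaled tags, with a −log10 q of 2.82 and no HCT116 interval over it. The table holds 4 MIR6859 hairpins with a single shared sequence, and 1 of them lay in an interval, so the copy that gave the reads is uncertain. MIR8078 (chr18:112256-112339, minus strand) sat in an interval of 113 tags against a background of 21 scaled tags, with a −log10 q of 13.4, which an HCT116 interval also covered. That interval also overlapped the pseudogene ROCK1P1. It was 1 of 5 neighbouring intervals within 5.3 kb on 18p, with 86 to 366 tags, each overlapped by HCT116. The tallest of them, with 366 tags, did not touch the hairpin.

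Across chromosomes 1 to 22, which held 957 intervals, density differed widely between the 41 chromosome arms. The median arm had 0.215 intervals per Mb and the whole set 0.341 per Mb. The densest were 2 short arms of acrocentric chromosomes. The arm 21p held 110 intervals at 16.1 per Mb (exact 95% Poisson interval 13.2 to 19.4), which was 74.9 times the median arm, and 22p held 46 at 13.7 per Mb (10.04 to 18.3). Next came 5p with 80 intervals at 1.67 per Mb (1.32 to 2.07), 20q with 47 at 1.27 (0.936 to 1.69), 7q with 121 at 1.21 (1.01 to 1.45) and 12p with 37 at 1.03 (0.726 to 1.42). These Poisson intervals of 20q, 7q and 12p overlap each other and that of 5p, so their order is not resolved by counting alone. At the other end, 11 arms had under 0.1 intervals per Mb, with 2 intervals on 13q (0.0208 per Mb) and 1 on 21q. The p arm was denser than the q arm on 13 of the 19 chromosomes with both arms annotated.

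**Figure D1:**
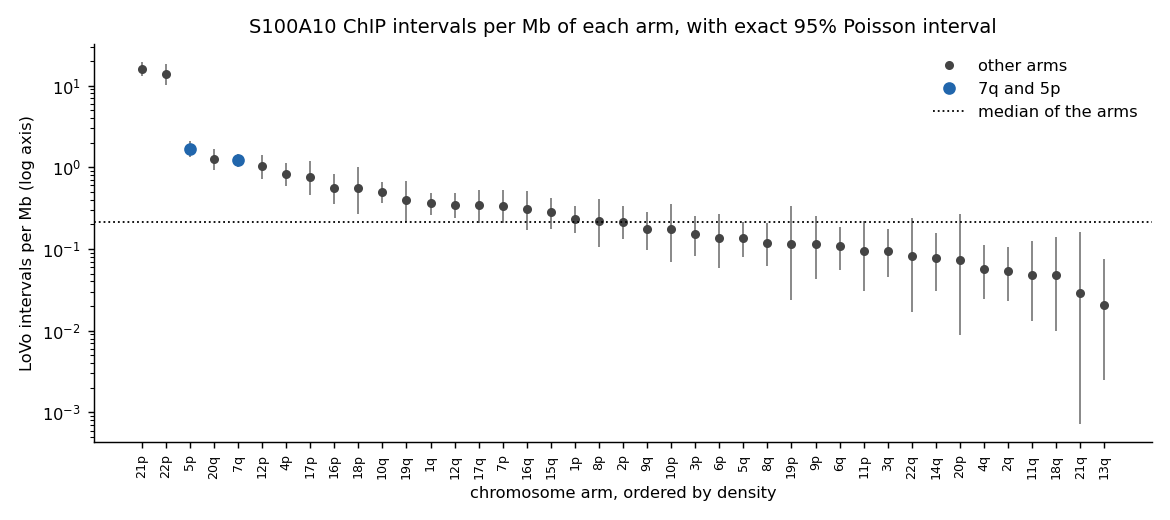
Intervals per Mb of each of 41 chromosome arms (log axis, arms ordered from dense to sparse), with exact 95% Poisson intervals as bars and the median of the arms as a dotted line. The arms 21p and 22p lie above 10 per Mb, 5p and 7q (blue) stand at 1.67 and 1.21, and 13q is lowest at 0.0208.

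The dense arms reached their density in different ways. On 20q all 47 intervals, on 22p all 46 and on 21p 105 of 110 lay within 5 Mb of the gene-free stretch around the centromere (pericentromeric). On 7q none of the 121 did, and on 5p 4 of 80 did. Outside the pericentromeric stretches there were 430 intervals, of which 7q held 121 (28.1%) on 3.56% of the arm length and 5p held 76 (17.7%) on 1.71% of it. Together these arms held 45.8%. On 12p 15 of 37 intervals and on 12q 24 of 34 were outside those stretches.

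Within 7q and 5p the intervals crowded towards the arm end. On 7q, 64 intervals lay in the outermost 5 Mb (12.8 per Mb) and 36 in the next 5 Mb, and the outermost 15 Mb held 103 (6.87 per Mb), against 0.212 per Mb over the rest of the arm. On 5p, 42 lay in the outermost 5 Mb (8.40 per Mb), against 0.883 per Mb over the rest. The ends of 1p and 7p followed among the arms without a nearby pericentromeric stretch, each with 7 intervals (1.40 per Mb). No interval lay in the outermost 5 Mb of arms such as 2p, 2q, 19p, 19q, 22q and 16p. On 12q the intervals followed another order, with 9 in the innermost bin and 6 in each of the bins from 80 to 90 Mb from the end.

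**Figure D2:**
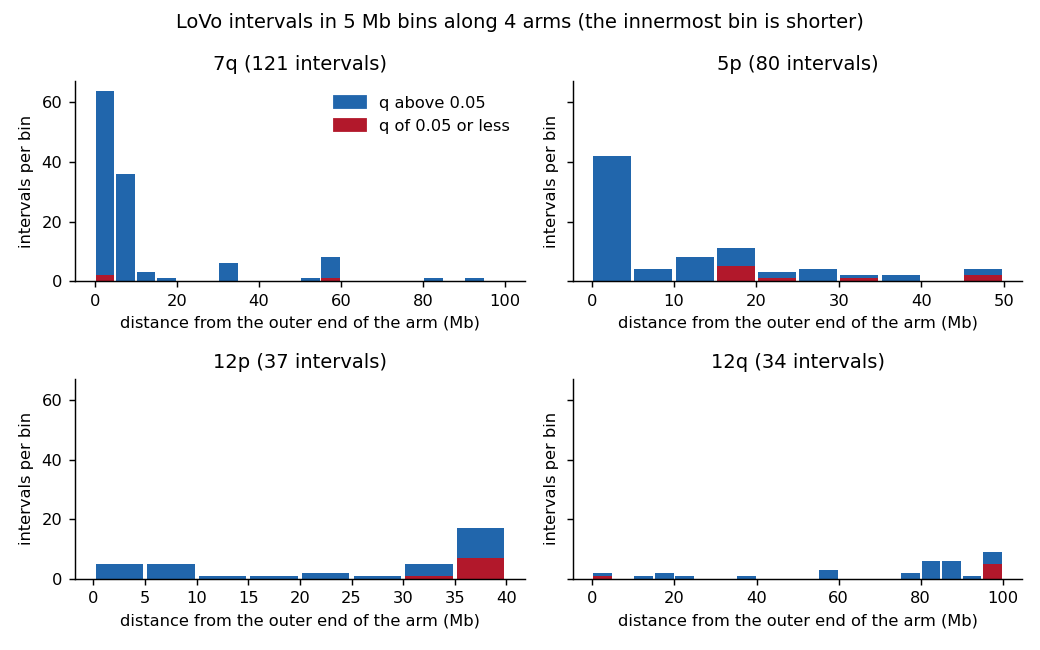
Number of intervals in 5 Mb bins against the distance from the outer end of the arm in Mb, for 7q, 5p, 12p and 12q, with intervals of q 0.05 or less in red and the others stacked above in blue. The bins nearest the end hold 64 intervals on 7q and 42 on 5p, and the red share is 2 of 64 on 7q and 0 of 42 on 5p.

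The intervals on 7q were uniform and weak. They held 8 to 35 tags with a median of 11. Their local background had a median of 1.60 scaled tags, 1.37 times the genome-wide mean of 1.17, which is also its floor. Of these 121, 3 had a q of 0.05 or less, that is 2.48% (exact binomial 0.514% to 7.07%), against 27.9% of all intervals on chromosomes 1 to 22. A −log10 q of 0 was given for 102 of them, and 1 overlapped an HCT116 interval. The 76 intervals on 5p outside the pericentromeric stretch had a median of 10 tags and a background of 1.40, and 7 had a q of 0.05 or less (9.21%, 3.78% to 18.1%). HCT116 intervals overlapped 2 of them. The other arms outside the pericentromeric stretches together had 233 intervals with a median of 10 tags and a background of 1.40. Of these, 14.2% had a q of 0.05 or less (9.95% to 19.3%), and HCT116 intervals overlapped 30 (12.9%, 8.86% to 17.9%).

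By location, the pericentromeric intervals were the tallest of the classes on chromosomes 1 to 22. They numbered 527 with a median of 18 tags (17 to 20), against 11 (10 to 11) in 163 subtelomeric intervals and 10 (10 to 11) in 267 on the remaining arms. The 366 intervals on 54 unplaced sequences had a median of 20 tags (18 to 24). Subtelomeric intervals lie within 5 Mb of an arm end and are not pericentromeric, which leaves out 102 of the 265 intervals near an arm end, all on the short arms of chromosomes 21 and 22. Local background moved in step, at medians of 3.0, 1.43, 1.41 and 3.39 scaled tags in the same order. The fold enrichment differed little, with medians of 3.10, 3.13, 3.10 and 3.08. Over the 957 intervals of chromosomes 1 to 22, tags and background had a Spearman correlation of 0.80, a description across intervals that share 1 pair of libraries and the same pileup. Background was recovered from that pileup and the fold enrichment. The p cutoff also asks for more tags where background is higher, so neither the correlation nor the similar folds are independent of peak calling.

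A q of 0.05 or less was given for 42.5% of pericentromeric intervals (38.2% to 46.9%), 41.3% of unplaced ones (36.2% to 46.5%), 11.7% of subtelomeric ones (7.17% to 17.6%) and 8.99% of those on the remaining arms (5.84% to 13.1%). HCT116 intervals overlapped 57.5%, 71.3%, 12.3% and 4.87% of them in the same order, and 45.1% of all LoVo intervals. Counted the other way, 575 intervals of HCT116, or 13.9% of its 4148, met one of LoVo.

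Length changed less than height. The median was 385 bp (367 to 398) in pericentromeric intervals, 349 bp (324 to 377) in subtelomeric ones, 341 bp (328 to 352) on the remaining arms and 412 bp (387 to 422) on unplaced sequences. The shortest possible interval equals the 281 bp extension of a read, and 161 of the 957 intervals of chromosomes 1 to 22 (16.8%) had that length. The 103 intervals with 2 or more summits had a median length of 841 bp, 39 tags and a background of 8.0, and 54 of them were pericentromeric and 33 unplaced. None of the 163 subtelomeric intervals had more than 1 summit (0 of 163, exact binomial upper limit 2.24%). Within the pericentromeric class, 21p and 22p stood lower, with a median of 15 tags in 151 intervals against 28 in the other 376.

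**Figure D3:**
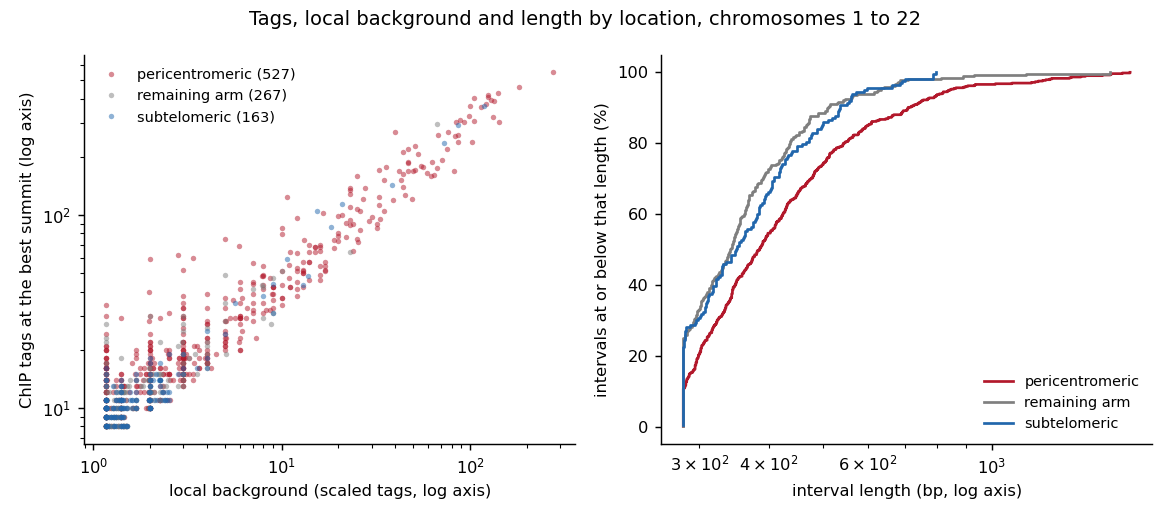
Left, ChIP tags at the best summit against local background in scaled tags (both log axes) for 957 intervals on chromosomes 1 to 22, coloured by location. Right, the cumulative percentage of intervals by length in bp (log axis), where pericentromeric intervals (median 385 bp) lie to the right of the subtelomeric (349 bp) and remaining arm (341 bp) ones.

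The distance between neighbouring intervals varied over several orders of magnitude. The 935 spacings between neighbours on the same chromosome had a median of 44.8 kb (33.4 to 66.5 kb), with quartiles at 3.18 and 549 kb and a range from 156 bp to 86.1 Mb. At most 1 kb separated 126 of the pairs (13.5%), 35.8% lay within 10 kb, 57.4% within 100 kb and 78.9% within 1 Mb. Neighbours up to 100 kb apart were chained, which gave 288 intervals alone, 227 in chains of 2 to 4 and 442 in 42 runs of 5 or more. The runs held 46.2% of the intervals (42.99% to 49.4%).

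Intervals in runs were taller than those alone, with medians of 18 tags (17 to 20) and 10 tags (10 to 11). Their local background differed likewise, at 3.0 and 1.40 scaled tags. This difference lay mostly with the pericentromeric runs, whose intervals had a median of 21 tags (18 to 28), against 16 (14 to 17) in pericentromeric intervals not in runs. Outside the pericentromeric stretches the medians were 11 (11 to 13) in runs and 10 (10 to 11) not in runs. HCT116 intervals overlapped 59.7% of the intervals in runs (55.0% to 64.3%) and 7.29% of those alone (4.57% to 10.9%). Of the 42 runs, 32 were pericentromeric and held 352 intervals, 6 were subtelomeric with 62, and 4 lay on the remaining arms with 28. Pericentromeric runs had 251 of their 352 intervals overlapped by HCT116, and 23 of the 32 touched no annotated gene. The class takes in the gene-free stretch, so a lack of genes there is partly set by its definition.

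Spacing followed location. The interval before lay a median of 8.97 kb away for pericentromeric intervals, 54.7 kb for subtelomeric ones and 1158 kb for those on the remaining arms.

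The longest run, on 1q at chr1:143184938-143267544, held 33 intervals in 82.6 kb with 20 to 403 tags and a median of 74. Of these, 29 had a q of 0.05 or less, and an HCT116 interval overlapped each of the 33. On 4p, 28 intervals lay in 65.6 kb with a median of 68.5 tags, and all were overlapped by HCT116. The 9 runs of 21p held 105 intervals with run medians of 13 to 82.5 tags. The run with the highest median, 344.5 tags, was on 16q, with 8 intervals in 15.4 kb over a background of 111 scaled tags. Runs on 7q looked different. The arm had 4 runs that held 56 intervals with run medians of 10 to 11.5 tags. Of the 56, 2 had a q of 0.05 or less, and none was overlapped by HCT116. The tightest of these runs had 7.91 intervals per 100 kb, against 39.9 in the 1q run. Pericentromeric runs were not uniform either. The 2 runs of 12p held 15 intervals with run medians of 15.5 and 16 tags over a background of 1.17 scaled tags, the genome-wide mean, and the 5 intervals of the 6q run had a median of 30 tags and a median fold enrichment of 6.15. No HCT116 interval overlapped these 3 runs.

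**Figure D4:**
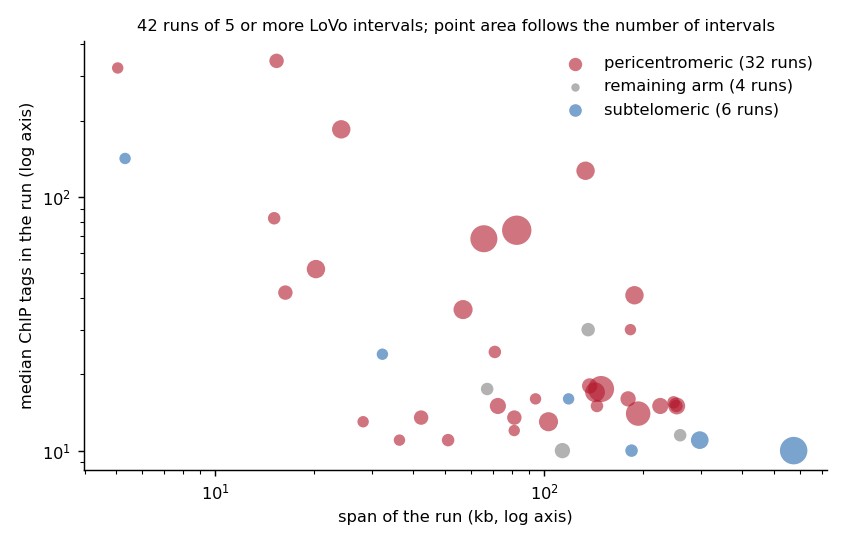
Median ChIP tags of each of 42 runs against its span in kb (both log axes), with point area following the number of intervals and colour the location. The run of 29 intervals within and beside PTPRN2 spans 575 kb at a median of 10 tags, while the run of 33 intervals on 1q spans 82.6 kb at 74 tags.

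The most intense intervals carried little gene sequence. The 3 highest by −log10 q on chromosomes 1 to 22 were all in the 1q run, with 268, 124 and 403 tags and −log10 q of 47.9, 35.9 and 31.2, and the nearest gene, the lncRNA LOC101929814, was 44.6 to 84.3 kb away. The fourth lay on 3p in DUX4L26, a pseudogene of the double homeobox factor DUX4, with 296 tags over a background of 67.0. The fifth, on 6p, stood over a far lower background than these. It had 59 tags over a background of 2.0 scaled tags. The list gives it a 13.2-fold enrichment and a −log10 q of 28.8. It stood alone, overlapped no HCT116 interval and lay 329 kb from the nearest gene, the pseudogene RBBP4P4. Low background was not particular to it. Among the next highest, chr7:56371547-56372241 had 62 tags over 2.81 scaled tags (10.9-fold). Near it, chr7:56373405-56373815 had 75 tags over 5.0 scaled tags (8.34-fold). Both lay in pseudogenes on 7p, and HCT116 intervals overlapped both.

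Genes held fewer intervals than their share of sequence. Of 1014 intervals on assembled chromosomes, 318 (31.4%, 28.5% to 34.3%) overlapped a gene, while annotated genes span 57.2% of the sequence of chromosomes 1 to 22. The location classes differed, with 7.40% of pericentromeric intervals in a gene (5.31% to 9.98%), 62.6% of subtelomeric (54.7% to 70.0%) and 64.8% of those on the remaining arms (58.7% to 70.5%). The pericentromeric class takes in the gene-free stretch itself, so its low share is partly set by how the class was defined. The share of sequence in genes was not computed for each class. On 7q, 97 of the 121 were in a gene (80.2%, 71.9% to 86.9%), and on 5p 27 of 76 (35.5%, 24.9% to 47.3%). Starts showed the same division, with the same limit from the definition of the pericentromeric class. On the 21 autosomes with starts in the table, 66 of 410 intervals outside the pericentromeric stretches lay within 5 kb of a start (16.1%), against 7 of 525 pericentromeric ones (1.33%) and 9.14% of the sequence.

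In all, 253 of 58957 annotated genes (0.429%) overlapped a LoVo interval, among them 152 of 19862 protein-coding genes (0.765%), 55 lncRNAs and 40 pseudogenes. For 121 of the 152 protein-coding genes the best interval had a −log10 q of 0, and 9 had an interval with a q of 0.05 or less. These 9 were DUX4, FAM90A24, LOC101927345, C1QTNF3, MUC12, PTPRN2, FAM90A12, TTC34 and CPN2. The highest was DUX4, whose copies lie in the D4Z4 repeat array of 4q, with 236 tags over a background of 73.0 and a −log10 q of 11.1. The best interval of C1QTNF3, a C1q and tumour necrosis factor related secreted protein, had 43 tags over 7.90 and was shared with the pseudogene LOC646652. MUC12, a membrane mucin of the colon, had 22 tags over 2.25 (4.74-fold) and a −log10 q of 3.22. CPN2, the regulatory subunit of carboxypeptidase N, had 14 tags over 1.41 and a −log10 q of 1.31. TTC34, a tetratricopeptide repeat gene near the end of 1p, held a run of 5 intervals in 32.2 kb with 15 to 43 tags over a median background of 5.0, 1 of them at a q of 0.05 or less and each overlapped by HCT116. FAM90A24, FAM90A12 and DUX4 belong to multicopy families, so reads may not be attributable to 1 copy.

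PTPRN2, a receptor-type protein tyrosine phosphatase of dense-core secretory vesicles, held more intervals than any other gene, 40, followed by the pseudogene BAGE2 with 7. It is 1049 kb long (chr7:157539056-158587823) and lies near the end of 7q. Its intervals held 8 to 35 tags with a median of 10.5, of which 37 had at most 15 tags, over a median background of 1.43 scaled tags. The fold enrichment ran from 2.29 to 4.38. Most were near the limit of detection of the list, since 33 had a −log10 q of 0, 2 had a q of 0.05 or less and no HCT116 interval overlapped any of them.

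The intervals were spread along PTPRN2 rather than gathered at 1 site. They covered 16.5 kb, or 1.57% of the gene, between 70.8 and 1012 kb from its centromere-side end, with 14 in the centromere-side part up to the midpoint and 26 in the rest. Neighbours in the gene were a median of 13.6 kb apart. They fell into a run of 12 and the run of 29, of which 28 touch the gene. The tallest lay at chr7:158336629-158337414 with 35 tags over a background of 5.62 (3.61-fold) and a −log10 q of 2.995. Its neighbour at chr7:158331037-158331627 had 17 tags over 2.0 and a −log10 q of 1.52. The next, at chr7:158341232-158341512, had 16 tags, but its background was 4.0 and its −log10 q 0. Exons and introns were not separated, since the reference table gives gene bodies alone.

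**Figure D5:**
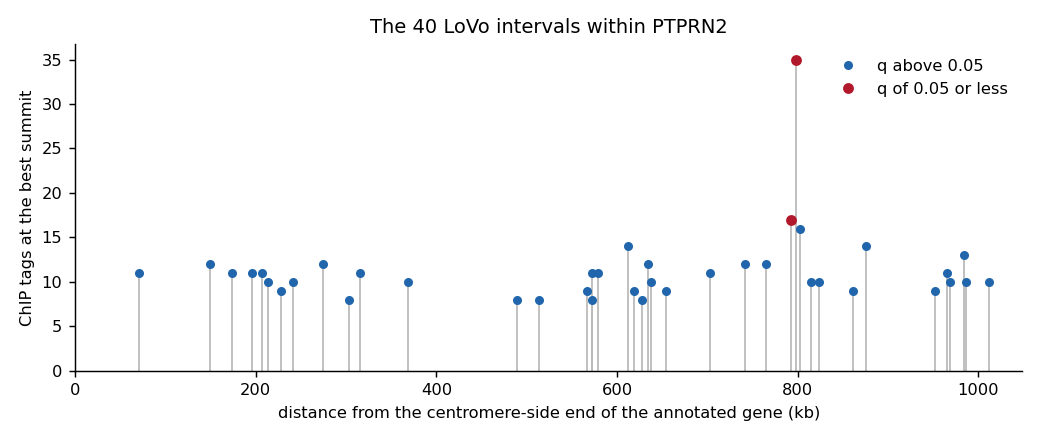
ChIP tags at the best summit of each of the 40 intervals within PTPRN2, against the distance in kb from the centromere-side end of the annotated gene (1049 kb), with q of 0.05 or less in red. Intervals of 8 to 17 tags are spread along the gene and 1 interval, at 798 kb, reaches 35 tags.

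The study also singled out DEFA3 and ARHGEF18. DEFA3, a neutrophil defensin on 8p, had 1 interval (chr8:7016263-7016714) with 13 tags over a background of 1.17 (4.38-fold) and a −log10 q of 1.10, which missed a q of 0.05. It overlapped no HCT116 interval. DEFA3 is nearly identical to the DEFA1 copies beside it, so the copy is uncertain. ARHGEF18 overlapped no LoVo interval.

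Other genes of the outer part of 7q held fewer intervals than PTPRN2, with similar tags, but several are far shorter. Per 100 kb of gene, PTPRN2 held 3.81 intervals, DPP6 0.349, VIPR2 2.57, WDR86 7.18, SSPOP 8.63 and ZNF467 24.3. In the outer part of 7q, DPP6, a dipeptidyl-peptidase-like subunit of Kv4 channels, held 4 intervals with up to 14 tags, WDR86 held 3 with up to 15, VIPR2, the receptor for vasoactive intestinal peptide, held 3 with up to 11, and ZNF467, a zinc finger gene, held 3 with up to 10. None of these had a −log10 q above 0. A run of 9 on 7q joined ZNF467 with the pseudogene SSPOP, which held 5 intervals. ABCB8, a mitochondrial ABC transporter, held 2, with up to 13 tags over 1.17 and a −log10 q of 1.10. In all, 29 protein-coding genes with an interval were on 7q, 12 on 5p, 22 on chromosome 12 and 9 on 7p. Annotated genes were not counted by arm, so these counts do not show a surplus on any of them.

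On 5p the genes at the arm end were PLEKHG4B, PDCD6, AHRR, SLC9A3, CEP72, NKD2, TERT and SLC6A3. TERT, the catalytic subunit of telomerase, held 1 interval with 10 tags over 1.17 and a −log10 q of 0. SLC6A3, the dopamine transporter, held 2 with up to 11 tags and a −log10 q of 0.323. Both were in a run of 6 over 185 kb with 9 to 11 tags. SLC9A3, the sodium and hydrogen exchanger of the gut epithelium, reached 13 tags and a −log10 q of 0.564. Farther in, the run at chr5:17517618-17653831 had 7 intervals with 11 to 51 tags and a median of 30, of which 5 had a q of 0.05 or less. It touched no gene body, but the starts of 8 TAF11L genes, copies related to the general transcription factor subunit TAF11, lay within 5 kb of its intervals. The copies resemble each other, so the reads could be divided among them.

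In all, 81 genes had an interval within 5 kb of a start, of which 48 were protein-coding and 33 lncRNAs, the 8 TAF11L genes included. For 15 of the 81 such an interval had a q of 0.05 or less, and 7 of the 15 were TAF11L genes that share intervals of that run. Counted as intervals, 13 of the 73 near a start had that q (17.8%), against 27.9% of all on chromosomes 1 to 22. Of the 73, however, 66 lay outside the pericentromeric stretches. That q was given there for 11.7% of subtelomeric intervals and 8.99% of those on the remaining arms. These shares are not like for like with the 17.8%. The 13 include pericentromeric intervals, at LINC01667 and LOC107987246, and intervals of the TAF11L run. They were not split by location, so the 17.8% shows no excess near starts. By arm, 17 of the 81 genes were on 7q, 17 on 5p, the 8 TAF11L genes among them, and 12 on chromosome 12. The number of annotated genes on each arm was not set beside these counts. EN2, an engrailed homeobox gene, had 2 intervals within 5 kb with up to 11 tags, both at a −log10 q of 0. HOXA6 and HOXA3 shared the interval of HOXA-AS3 with 10 tags. RARRES2, which encodes the adipokine chemerin, had 1 interval 615 bp from its start with 12 tags over 1.21 and a −log10 q of 0.290.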

How the data were processed

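LoVo PGCCs with daughter cells gave 1 S100A10 ChIP library and 1 input library, sequenced as paired ends. The labels describe sonicated nuclei and the study's methods a nuclease digestion. Per the file headers, the authors called peaks with MACS 2.1.0.20150420 from uniquely mapped reads without duplicates, with a p cutoff of 0.005, reads extended to 281 bp without a fragment model, and the larger library scaled down. The aligner and genome build are not given in the sources used here. The deposited signal is the scaled pileup at each summit, and the authors' fold enrichment is the ratio of pileup to local background, each plus 1. The deposited −log10 p-value is unadjusted. The names of both score columns were damaged, and the last was read as the adjusted −log10 q-value from the order of MACS output, although a line of the header says that no q was computed. The study's methods state a laxer p threshold than the header.

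From these, lines were merged, ChIP tags were recovered by dividing the pileup by the ratio of the library sizes (12925105 of 19762814 tags), and local background was recovered from the fold enrichment. Regional background was taken over 1000 and 10000 bp by MACS, with a genome-wide floor of 1.17 scaled tags. Sequence names are of the GRCh38 kind, so RefSeq GRCh38.p14 gave 58957 genes, 35116 promoter windows and the miRNAs. Starts on chromosome 8 were not analysed here. Arms ran from the first to the last annotated gene, split at the middle of the longest gene-free stretch. The distance of 5 Mb was measured from the edges of that stretch, not its middle as first written. Neighbours at most 100 kb apart were chained, and runs held 5 or more. No test was run, since each arm had 1 library. Brackets hold 95% exact Poisson, exact binomial (Clopper-Pearson) or order-statistic median intervals. The scripts were tested on simulated data and used Python 3.11.15 and scipy 1.17.1.

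Named genes were PTPRN2, DEFA3 and ARHGEF18, the 20 protein-coding genes highest by −log10 q, the 10 with most intervals, protein-coding genes in runs, gene-list members with an interval, the 5 highest intervals of chromosomes 1 to 22, and genes with an interval at their start. Not all were printed, and 1 gene list is not reported here. The members, lists and rules were chosen with earlier results of these data known.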

Additional observations from a re-analysis of the deposited data

How the results depend on the processing

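Most values moved with the limit set on peaks or on runs. Keeping a −log10 q of at least 2, a q of 0.05 or less, or a fold enrichment of at least 5 left 358, 449 and 86 intervals. The share on the densest arm was then 5.26% on 21p, 3.37% on 22p and 5.45% on 22p. Without the pericentromeric intervals the densest arm was 5p with 17.7%, or 14.6% with the distance measured from the middle of the gene-free stretch (chosen after seeing the data). The share in runs was 39.2% when chained at 50 kb, 61.1% at 250 kb and 73.7% at 1 Mb, 57.99% for runs of 3 or more and 28.9% for runs of 10 or more, 49.8% at a −log10 q of at least 2 and 0% at a fold enrichment of at least 5. The median spacing was 6.11 kb at a −log10 q of at least 2, 8.09 kb at a q of 0.05 or less, 275 kb at a fold enrichment of at least 5 and 209 kb without the pericentromeric intervals. The pericentromeric median of tags was 63, 50 and 24 under the 3 limits, and the median length 411, 405 and 340.5 bp, or 366 bp in intervals with a single summit. The share in genes was 40.4% with genes extended by 5 kb, 21.1% in protein-coding genes, and 9.48%, 10.1% and 12.5% under the 3 limits.

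The crowding at the ends of 7q and 5p rested on weak peaks. In the outermost 5 Mb, 2 of 64 intervals on 7q and 0 of 42 on 5p had a q of 0.05 or less. Of intervals outside the pericentromeric stretches, 7q held 6.67% (2 of 30), 6.98% (3 of 43) and 0% (0 of 9) under the 3 limits, against 28.1% in all. The arm 5p held 20% (6 of 30), 16.3% (7 of 43) and 22.2% (2 of 9), against 17.7%. Of the 7 on 5p with a q of 0.05 or less, 5 lay in the run at chr5:17517618-17653831, away from the arm end. PTPRN2 kept 1, 2 and 0 of its 40 intervals. These limits on 7q and 5p were chosen after seeing the data. No paired analysis was possible because each arm had 1 library and no result came from a test. With 1 library the tags per interval (8 or more) limit what could be seen, and a peak below that height could not be detected.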

Other observations

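Outside chromosomes 1 to 22, the 57 intervals on X and Y were the tallest class by median, with 27 tags (24 to 39) over a background of 4.21 scaled tags, and 54.4% had a q of 0.05 or less. The gene lists mostly held no interval. None was found in the cadherin and protocadherin symbols, 55 integrins and laminins, 56 septins, 54 S100 and annexin symbols, 14 plasminogen activation genes, 20 SUMO pathway genes, 24 hypoxia response genes or 16 epithelial to mesenchymal transition factors. Of all annotated genes, 0.429% held an interval. The D4Z4 repeat genes had 8 of 66 symbols with an interval, 5 of them with a q of 0.05 or less, and copies of this family resemble each other. The tyrosine phosphatases had 2 of 59, PTPRN2 and its antisense neighbour PTPRN2-AS1, which shared an interval. The zinc finger symbols, a list drawn by symbol and not by protein domain, had 2 of 702, ZNF467 and the pseudogene ZNF767P, both on 7q. The ribosomal RNA symbols had 1 of 551, RNA5S9, with 15 tags over 1.17 and a −log10 q of 1.94. The defensins had 1 of 68, DEFA3. The HOX symbols, a list added after their values were seen, had 4 of 54 (HOXA-AS3, HOXA3, HOXA6 and HOXC9), of which 3 shared 1 interval on 7p, and all were at a −log10 q of 0.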
